A study of Mus musculus with 18 samples.

Results

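The genes described here are 36 markers of brain blood vessels, chosen by symbol from the 22063 genes of a hippocampal RNA-seq table. All 36 were found, and all had at least 9 counts in every library. They comprise 25 genes of endothelial cells, 9 genes of mural cells (pericytes and smooth muscle cells) and 2 basement membrane collagens that both cell types make. RNA was measured in 18 samples of mouse hippocampus in 4 groups. The S-V samples (n = 5) followed rotation in 1 direction with vision blocked. The D+V samples (n = 5) followed turning both ways with free sight. The D-V samples (n = 5) followed turning both ways with vision blocked, a stimulus named the Coriolis illusion in the labels. Control (n = 3) is labelled a blank control. Per the series design, the tissue was taken immediately after rotation. The sources used here give no strain, sex or age. Since the labels do not say that the samples came from separate animals, each p-value reflects only how far these samples spread, which may be technical. Library totals ran from 15.03 to 25.31 M counts.

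The wall of a brain capillary is a tube of endothelial cells joined by tight and adherens junctions and wrapped by pericytes inside a shared basement membrane, with astrocyte endfeet around it. Endothelial cells recruit and hold pericytes by secreting PDGF-B, which the pericyte receptor encoded by Pdgfrb binds. Together these cells form the blood-brain barrier, which restricts passage between junctions and passes nutrients through dedicated transporters. In a whole hippocampus these genes report on a minor cell population, and fewer cells of a type and less RNA per cell cannot be told apart.

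The upstream windows of 3 endothelial members are shown because they are the members with the smallest p in the comparison of D+V with Control for which the RefSeq promoter table (build GRCm38.p6) has an entry. They are Cldn5 (chr16:18776597-18776846, plus strand), Eng (chr2:32646345-32646594, plus strand) and Robo4 (chr9:37401722-37401971, plus strand), each 250 bases that end at the annotated start, written 5′ to 3′. Capitals mark the SOX core ACAAT on either strand, the sequence bound by factors such as those of the members Sox17 and Sox18. It was found 2 times upstream of Robo4 and 0 times in the other 2 windows.
Cldn5: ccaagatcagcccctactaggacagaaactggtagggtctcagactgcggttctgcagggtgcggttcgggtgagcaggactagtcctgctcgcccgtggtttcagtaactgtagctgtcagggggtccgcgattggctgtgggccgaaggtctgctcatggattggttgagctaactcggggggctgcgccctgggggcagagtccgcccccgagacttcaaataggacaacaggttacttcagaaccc
Eng: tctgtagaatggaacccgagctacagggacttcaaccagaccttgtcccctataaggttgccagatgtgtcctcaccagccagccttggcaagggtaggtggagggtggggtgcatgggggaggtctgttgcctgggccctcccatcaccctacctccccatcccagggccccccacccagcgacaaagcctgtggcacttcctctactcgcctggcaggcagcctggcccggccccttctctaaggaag
Robo4: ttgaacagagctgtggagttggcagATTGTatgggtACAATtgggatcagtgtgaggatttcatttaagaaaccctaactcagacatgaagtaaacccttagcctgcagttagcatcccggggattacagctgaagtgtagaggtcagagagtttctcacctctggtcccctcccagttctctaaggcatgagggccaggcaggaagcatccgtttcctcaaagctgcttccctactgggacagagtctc
The table holds entries for 23 of the 36 members, with 29 windows between them, of which 7 (24.1%) hold the motif. Over all 32851 windows of that length the share was 27.7%, so the members' share lay near the background.

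Levels are given in CPM, counts scaled to a common library total by TMM. Over all libraries the highest were Bsg at 520 CPM, a chaperone of monocarboxylate transporters that many cell types make, and Rgs5 at 95.8 CPM, a G protein signalling regulator of pericytes. The lowest were Higd1b at 1.11 CPM and Ndufa4l2 at 2.09 CPM, both mitochondrial proteins used as pericyte markers. Per kilobase of the longest annotated transcript, the order after Bsg (340 CPM per kb) was the endothelial surface antigen Ly6c1 (43.8), the pericyte-secreted Vtn (40.7), the endothelial membrane protein Itm2a (36.5) and Cldn5 (25.9). The lowest by that measure was the potassium channel subunit Abcc9 (0.845 CPM per kb). Defining markers of both cell types were thus measured in every library. S-V replicates 2 and 4, D+V replicate 2 and D-V replicates 3 and 4 stood apart by their choroid plexus markers.

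In D+V against Control 2 members fell, Pdgfrb and Cldn5, and 0 rose. These 2 of 36 stood beside 134 of 14763 genes called (0.908%), of which 26 fell (0.176%) and 108 rose (0.732%), at a Benjamini-Hochberg adjusted p under 0.05 in the quasi-likelihood test of edgeR. Of the 36 members 30 had a negative log2 fold change in D+V. Their median was -0.21 over the endothelial members and -0.42 over the mural members, against 0 over all genes tested. At an unadjusted p under 0.05, 12 members (33.3%) were lower in D+V and 0 were higher, against 7.02% and 10.9% of all genes. The members were chosen with earlier results of these data known. Their shares and medians, here and below, are therefore a description and not a test. DESeq2 called 4 members and 4.16% of all genes. The voom method of limma with quality weights per library (limma voom from here on) called 8 members and 12.7% of all genes. Without the 5 libraries rich in choroid plexus markers edgeR called 0 members and 1 gene, and the medians were -0.15 and -0.38. With all libraries and the choroid plexus level as a covariate, both members were called (Pdgfrb -0.51, Cldn5 -0.58), with 1.8% of all genes.

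In S-V against Control 0 members were called, and 0% of the 14763 genes tested. At an unadjusted p under 0.05, 6 members (16.7%) were lower and 2 (5.56%) higher by edgeR, against 6.12% and 7.54% of all genes. DESeq2 and limma voom each called 3 members (Pdgfrb and Col4a2 lower, Ocln higher), where they called 1.13% and 2.15% of all genes. The medians were -0.08 for the endothelial and -0.35 for the mural members, and -0.09 and -0.31 without the choroid-rich libraries. In D-V against Control 0 members and 0% of genes were called by edgeR. At an unadjusted p under 0.05, 1 member (Pdgfrb) was lower and 1 (Rgs5) higher, 2.78% each, against 2.71% and 3.5% of all genes. DESeq2 called 0 members and 0.0164% of genes, and limma voom 0 members and 0% of genes. The medians were 0.02 for the endothelial and -0.19 for the mural members, and -0.11 and -0.23 without the choroid-rich libraries. These comparisons share the same 3 control libraries, so a low or high control moves all of them. Below, members are described by whether all libraries of a group lay below or above all controls. Over all genes that held for 5.74% (below) and 6.62% (above) in S-V, 3.96% and 3.67% in D+V, and 2.37% and 2.75% in D-V. Among the 36 members it held for 13.9% and 5.56%, 16.7% and 0%, and 5.56% and 2.78% in the same order.

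**Figure D1:**
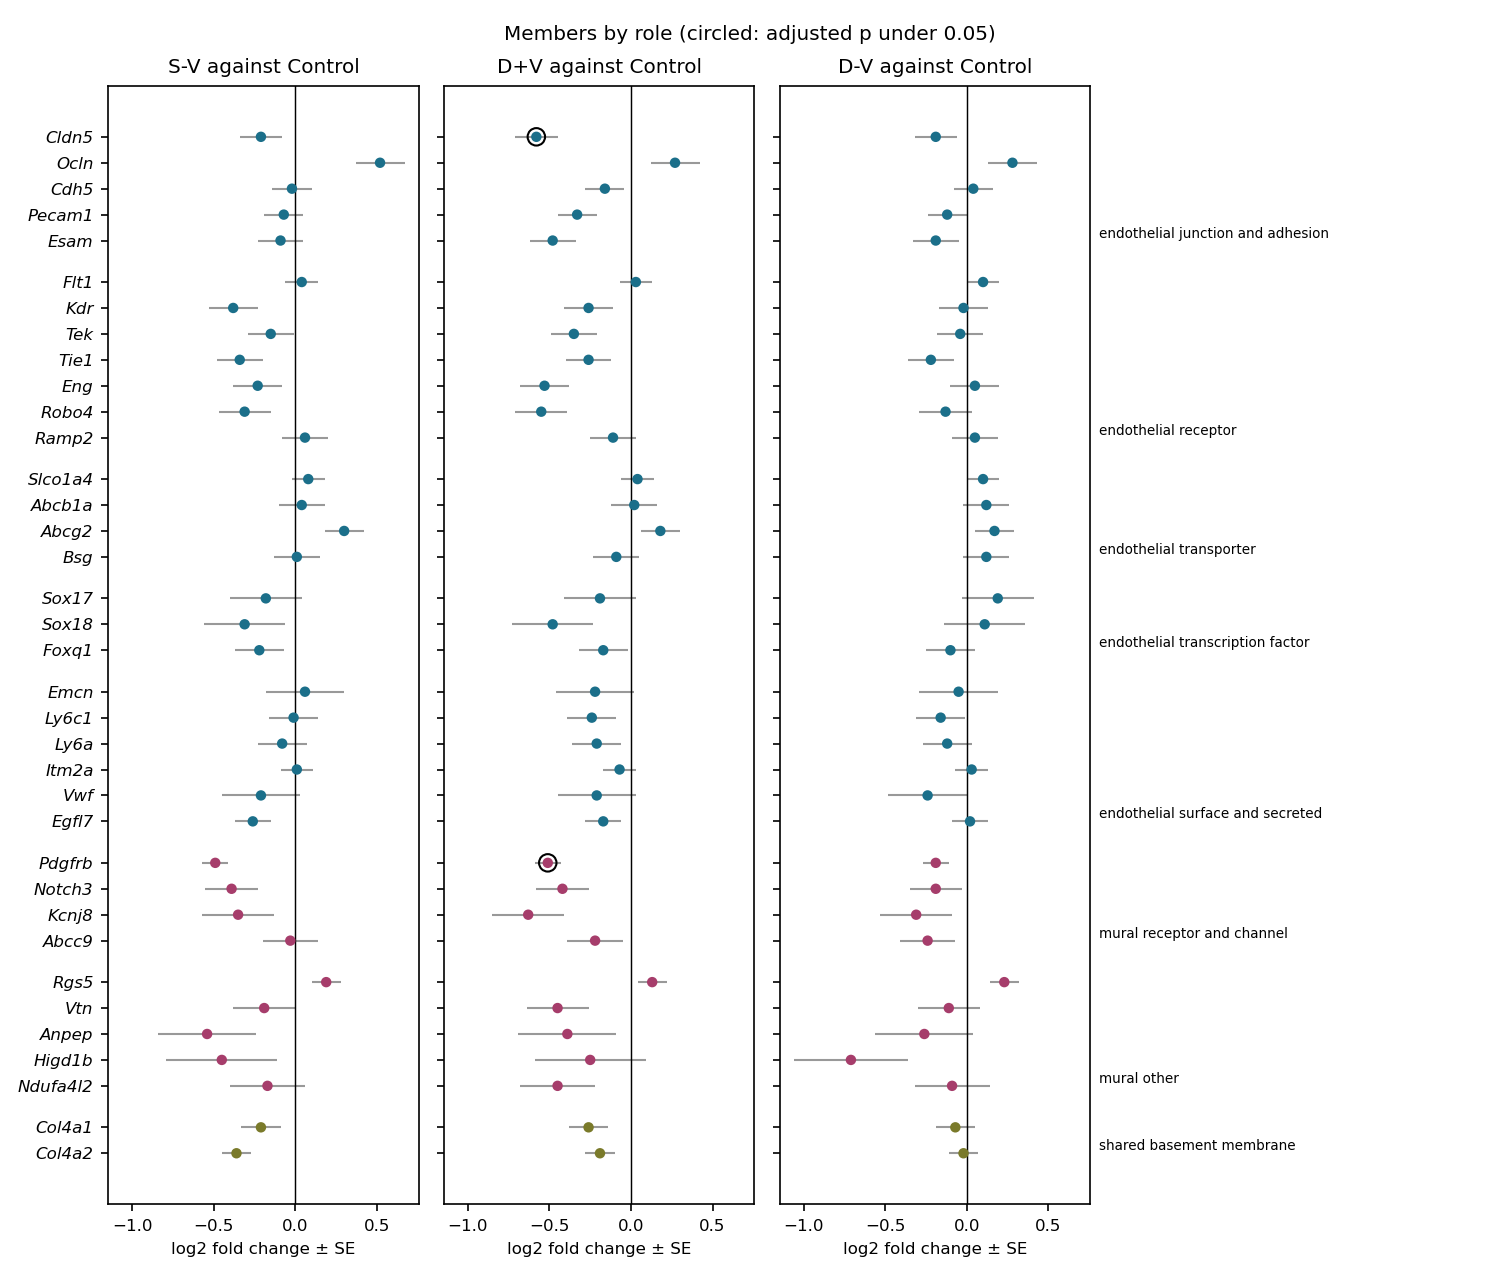
Log2 fold change of each of the 36 members against Control, with its standard error (SE), in S-V, D+V and D-V; blue points are endothelial, red mural and olive basement membrane members, and circles mark an adjusted p under 0.05. The 2 circled genes, Cldn5 and Pdgfrb, are both in D+V, and Ocln lies at 0.52 for S-V, 0.27 for D+V and 0.28 for D-V.

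Among the mural receptors, Pdgfrb, the PDGF receptor that pericytes need to attach to vessels, had the smallest p. It had 19.6, 22.9, 22.6, 23.4 and 22.7 CPM in S-V, 20.7, 19.7, 21.7, 23.6 and 24.4 in D+V, and 27.3, 27, 28.6, 28.6 and 25.5 in D-V, against 30.9, 32.7 and 30.2 CPM in Control. All 15 rotated libraries lay below all 3 controls, and the 5 D-V libraries lay above all 10 of the other rotated libraries. Pdgfrb fell in D+V to 22 ± 1.98 CPM (SD, n = 5), against 31.3 ± 1.26 in Control (SD, n = 3), a log2 fold change of -0.51 (SE 0.08, adjusted p = 0.0131 by edgeR). The log2 fold change was -0.49 in S-V (SE 0.08, adjusted p = 0.0848) and -0.19 in D-V (SE 0.08, adjusted p = 0.764), neither past the threshold. Without the choroid-rich libraries the D+V value was -0.47 (adjusted p = 0.0678 by edgeR), not called.

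Notch3, the receptor through which endothelial ligands keep mural cells mature, had 9.4, 8.97, 8.95, 12.4 and 10.8 CPM in S-V, 6.51, 11.1, 10.9, 10.6 and 10.1 in D+V and 10.4, 12.3, 11.5, 9.47 and 14.2 in D-V, against 12.2, 14 and 13.4 CPM in Control. The 5 D+V libraries lay below all controls, whereas S-V and D-V overlapped Control. Its log2 fold change was -0.39 for S-V, -0.42 for D+V and -0.19 for D-V (SE 0.16 each), with adjusted p of 0.293, 0.175 and 0.875 by edgeR.

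Kcnj8 and Abcc9 encode the pore and the regulatory subunit of the ATP-sensitive potassium channel of pericytes and smooth muscle. Kcnj8 had 3.42, 3.63, 4.03, 2.52 and 2.48 CPM in S-V, 2.71, 2.75, 2.99, 2.8 and 2.04 in D+V and 3.12, 4.08, 2.72, 2.44 and 4.15 in D-V, against 3.17, 3.79 and 5.39 CPM in Control. The D+V libraries all lay below Control, by a log2 fold change of -0.63 (SE 0.22, adjusted p = 0.149 by edgeR), while the other groups overlapped it, at -0.35 in S-V and -0.31 in D-V (SE 0.22 each). Abcc9 ranged from 4.09 to 7.33 CPM in D+V, against 5.68 to 7.87 in Control, with a log2 fold change of -0.22 (SE 0.17).

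Rgs5 was the exception among the 9 mural members. It had 97.4, 98.7, 99.4, 91.7 and 103 CPM in S-V, 103, 72.8, 95.3, 112 and 88.1 in D+V and 104, 100, 100, 103 and 96.9 in D-V, against 80.9, 90.6 and 86.6 CPM in Control. All S-V and all D-V libraries lay above all controls, and D+V spread to both sides. The log2 fold change was 0.19 (SE 0.09) for S-V, 0.13 (SE 0.09) for D+V and 0.23 (SE 0.09) for D-V, with adjusted p of 0.392, 0.485 and 0.751 by edgeR. In D+V the sign turned to -0.02 once trends on GC content and transcript length were removed per library.

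Higd1b, a pericyte marker of low level, had 0.948, 1.02, 0.526, 0.818 and 1.92 CPM in S-V, 1.58, 0.857, 1.15, 1.1 and 1.36 in D+V and 0.466, 0.873, 0.973, 1.05 and 1.04 in D-V, against 1.54, 1.49 and 1.26 CPM in Control. The D-V libraries all lay below Control, with a log2 fold change of -0.71 (SE 0.35, adjusted p = 0.804 by edgeR). The other mural members were Vtn, the aminopeptidase gene Anpep and Ndufa4l2. Their log2 fold changes ran from -0.54 to -0.17 in S-V, from -0.45 to -0.39 in D+V and from -0.26 to -0.09 in D-V, and none was called. Vtn showed a wide spread within groups, from 42.6 to 78.5 CPM in D+V, against 71.6 to 101 CPM in Control.

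**Figure D2:**
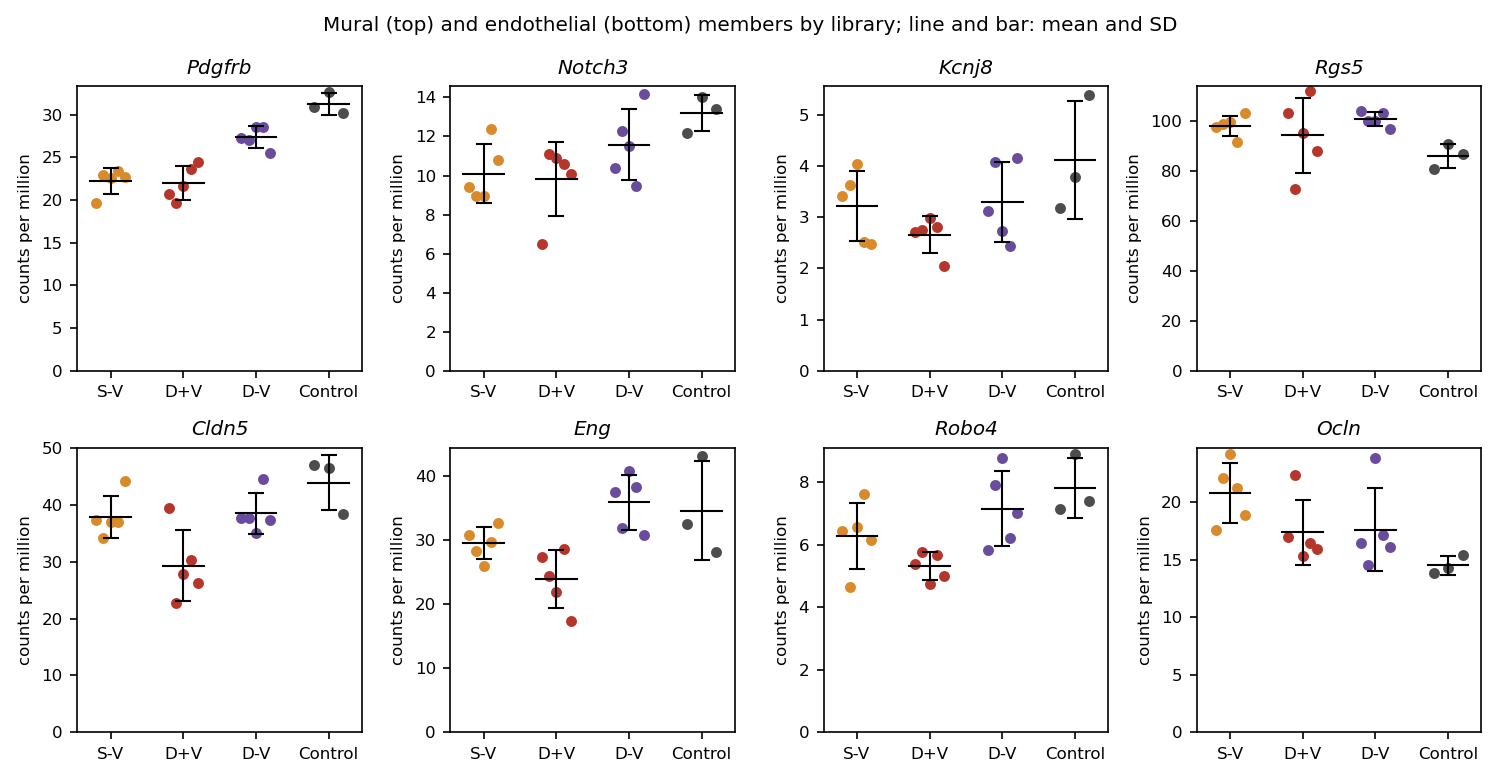
CPM of 4 mural members (top row) and 4 endothelial members (bottom row) in each library, with the mean and SD of S-V, D+V and D-V (n = 5 each) and Control (n = 3). Every rotated library lies below the controls for Pdgfrb, whereas for Cldn5 1 of the 5 D+V libraries (39.4 CPM) lies within the range of Control.

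Of the 5 junction and adhesion members, Cldn5, the tight junction claudin that seals brain endothelium, fell in D+V. It had 37.3, 34.1, 37, 36.9 and 44.1 CPM in S-V, 39.4, 22.8, 27.8, 30.3 and 26.3 in D+V and 37.7, 37.6, 35, 44.6 and 37.4 in D-V, against 46.9, 46.5 and 38.3 CPM in Control. In each rotated group 4 of 5 libraries lay below all controls and 1 overlapped them. The mean was 29.3 ± 6.25 CPM in D+V (SD, n = 5) and 43.9 ± 4.84 in Control (SD, n = 3), a log2 fold change of -0.58 (SE 0.13, adjusted p = 0.0416 by edgeR). The S-V value was -0.21 (SE 0.13, adjusted p = 0.493) and the D-V value -0.19 (SE 0.13, adjusted p = 0.848). Without the choroid-rich libraries the D+V value was -0.5 (adjusted p = 0.0889 by edgeR), not called.

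Ocln, the tight junction partner of the claudins, did not share that direction. It had 17.6, 22.1, 24.2, 21.2 and 18.9 CPM in S-V, 17, 22.3, 15.3, 16.4 and 15.9 in D+V and 16.4, 14.5, 23.8, 17.1 and 16.1 in D-V, against 13.8, 14.3 and 15.4 CPM in Control. All S-V libraries lay above all controls, with a log2 fold change of 0.52 (SE 0.15, adjusted p = 0.174 by edgeR). D+V and D-V each overlapped Control by 1 library, at log2 0.27 and 0.28 (SE 0.15 each). Occludin transcripts are also made by other cells with tight junctions, including choroid plexus epithelium. Without the choroid-rich libraries the log2 fold change of Ocln was 0.48 (SE 0.12) in S-V and 0.11 (SE 0.12) in D-V. Which cells made it was not tested.

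The adhesion molecule Esam had 15.4, 14, 14, 13.6 and 16.1 CPM in S-V, 13.5, 10.7, 8.75, 12.8 and 9.89 in D+V and 14.3, 11.9, 12.5, 16.7 and 13 in D-V, against 14.7, 18.1 and 14 CPM in Control. The 5 D+V libraries lay below all controls, at log2 -0.48 (SE 0.14, adjusted p = 0.0828 by edgeR). Pecam1, which holds endothelial cells together and senses flow, had 24.5, 27.4, 25.8, 29.4 and 25.8 CPM in S-V, 25.2, 20.8, 20.9, 25.7 and 18.7 in D+V and 25.8, 21.4, 31, 24.6 and 25.9 in D-V, against 24.8, 31.7 and 27.3 CPM in Control. Of the D+V libraries 3 lay below all controls, at log2 -0.33 (SE 0.12, adjusted p = 0.152 by edgeR). Cdh5, the adherens junction cadherin of endothelium, gave -0.02 for S-V, -0.16 for D+V and 0.04 for D-V (SE 0.12 each).

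Among the 7 endothelial receptors, Eng, a coreceptor for BMP and TGF-beta ligands, had 30.8, 28.3, 26, 29.7 and 32.6 CPM in S-V, 27.3, 24.3, 21.9, 28.6 and 17.4 in D+V and 37.5, 31.9, 40.7, 38.3 and 30.7 in D-V, against 32.5, 43.1 and 28.1 CPM in Control. Of the D+V libraries 4 lay below all controls, at log2 -0.53 (SE 0.15, adjusted p = 0.0743 by edgeR), while D-V lay within the range of Control, at 0.05 (SE 0.15). Robo4, an endothelial receptor that limits leakage, had 6.43, 4.66, 6.55, 7.61 and 6.15 CPM in S-V, 5.38, 5.77, 4.75, 5.67 and 5.01 in D+V and 5.83, 7.91, 8.76, 6.22 and 7 in D-V, against 7.13, 8.89 and 7.39 CPM in Control. All D+V libraries lay below Control, at log2 -0.55 (SE 0.16, adjusted p = 0.0801 by edgeR).

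Kdr and Flt1 encode the VEGF receptors, of which the first carries the growth signal and the second mainly binds and withholds ligand. Kdr had 15.1, 17.8, 15.7, 15.2 and 14.2 CPM in S-V, 14.8, 20.2, 18.9, 16.7 and 14 in D+V and 19.7, 18.3, 27.4, 18.8 and 15.3 in D-V, against 21.3, 19.7 and 19.7 CPM in Control. The S-V libraries lay below all controls, at log2 -0.38 (SE 0.15, adjusted p = 0.262 by edgeR), and D-V spread to both sides. Flt1 gave 0.04 for S-V, 0.03 for D+V and 0.1 for D-V (SE 0.1 each). The angiopoietin receptor gene Tek gave -0.15, -0.35 and -0.04 (SE 0.14 each) in the same order, and the adrenomedullin receptor component Ramp2 gave 0.06, -0.11 and 0.05 (SE 0.14 each).

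Tie1, the partner receptor of Tek, had 10.8, 11.5, 12.1, 10.8 and 11.6 CPM in S-V, 12.3, 11.5, 11.5, 14.4 and 10.1 in D+V and 9.75, 10.3, 15.8, 12.3 and 13.9 in D-V, against 14.1, 14.7 and 14.4 CPM in Control. All S-V libraries lay below Control, while D+V overlapped it by 1 library and D-V by 1 that lay above. The log2 fold change was -0.34 for S-V, -0.26 for D+V and -0.22 for D-V (SE 0.14 each), with a smallest adjusted p of 0.266 by edgeR.

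Of the 4 transporter members 0 were called, and their median was 0.06 for S-V, 0.03 for D+V and 0.12 for D-V. Slco1a4, an organic anion carrier of brain endothelium, and the drug efflux pump gene Abcb1a had log2 fold changes of 0.02 to 0.12 in the 3 rotated groups. Bsg gave 0.01, -0.09 and 0.12 (SE 0.14 each) in S-V, D+V and D-V. Abcg2, also a drug efflux pump, had 24.1, 25.4, 21.9, 19.5 and 22.8 CPM in S-V, 23.2, 16.6, 19.9, 25.3 and 19.7 in D+V and 19.9, 20.9, 20.8, 23.3 and 19.5 in D-V, against 19.2, 20 and 16.3 CPM in Control. Of the S-V libraries 4 lay above all controls, at log2 0.3 (SE 0.12, adjusted p = 0.274 by edgeR), and D+V and D-V overlapped Control. In D+V its log2 fold change of 0.18 turned to -0.05 with the GC and length trends removed.

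Of the 3 transcription factor genes, Sox18 gave -0.31, -0.48 and 0.11 (SE 0.25 each) and Sox17 gave -0.18, -0.19 and 0.19 (SE 0.22 each) in S-V, D+V and D-V. Foxq1 gave -0.22, -0.17 and -0.1 (SE 0.15 each), and none of the 3 was called. The 6 surface and secreted members (Emcn, Ly6c1, Ly6a, Itm2a, Vwf and Egfl7) had log2 fold changes of -0.26 to 0.06 in S-V and -0.24 to -0.07 in D+V, with 0 called. Vwf, the clotting factor stored by endothelium, had 48.5 CPM in 1 control and 19.4 and 21.9 CPM in the other 2. Egfl7, a secreted endothelial matrix protein, had 14.9, 15.5, 15.7, 15.5 and 18.5 CPM in S-V, 20.8, 14.5, 17.6, 16.2 and 16.2 in D+V and 17, 19.5, 19.6, 22.5 and 18.8 in D-V, against 19.8, 20.5 and 17.3 CPM in Control. Of the S-V libraries 4 lay below all controls, at log2 -0.26 (SE 0.11, adjusted p = 0.309 by edgeR).

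Col4a1 and Col4a2 encode the chains of the collagen IV trimer of the vessel basement membrane. Col4a2 had 30.3, 32.4, 34.4, 30.4 and 31.2 CPM in S-V, 29.1, 36.7, 38.3, 38.4 and 36 in D+V and 38, 39.4, 46.4, 39.5 and 38.7 in D-V, against 40.5, 44.1 and 37.8 CPM in Control. The S-V libraries lay below all controls, at log2 -0.36 (SE 0.09, adjusted p = 0.152 by edgeR), whereas D+V gave -0.19 and D-V -0.02 (SE 0.09 each). With the GC and length trends removed the S-V value was -0.19. Col4a1 ranged from 30.4 to 41.5 CPM in S-V and from 30.8 to 42.5 in D+V, all below the 42.7 to 44.3 CPM of Control, at log2 -0.21 and -0.26 (SE 0.12 each, adjusted p = 0.452 and 0.258 by edgeR).

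Taking the 15 rotated libraries together against Control, 0 members and 0% of genes were called by edgeR, with 8 members (22.2%) lower and 2 (5.56%) higher at an unadjusted p under 0.05, against 5.64% and 7.51% of all genes. DESeq2 called 1 member and 1.39% of all genes, and limma voom 3 members and 2.58% of all genes. Pdgfrb had the smallest adjusted p, 0.0606, with a log2 fold change of -0.4 (SE 0.07) and 15 of 15 libraries below all controls. Next were Cldn5 at -0.33 (SE 0.11), Ocln at 0.35 (SE 0.13), Robo4 at -0.33 (SE 0.13) and Col4a2 at -0.19 (SE 0.08). Notch3 at -0.33 (SE 0.14), Tie1 at -0.28 (SE 0.12) and Kcnj8 at -0.43 (SE 0.19) completed the 8 smallest p. The medians were -0.14 over the endothelial and -0.33 over the mural members, against 0 over all genes.

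The rotated groups were also set against each other, which asks about vision (D-V against D+V), direction (D-V against S-V) and both (D+V against S-V). In D-V against D+V 0 members and 0% of genes were called by edgeR. At an unadjusted p under 0.05, 0 members were lower and 8 (22.2%) higher, against 8.6% and 5.11% of all genes. DESeq2 called Eng and Pdgfrb, with 1.48% of all genes, and limma voom called those with Cldn5 and Sox18, with 5.55% of all genes, and each of these members was higher in D-V. Eng had a log2 fold change of 0.58 (SE 0.13) and Pdgfrb of 0.32 (SE 0.07), each with an adjusted p of 0.0901 by edgeR. Both had all 5 D-V libraries above all D+V libraries, as did 0.637% of all genes. Cldn5 gave 0.39 (SE 0.12, adjusted p = 0.152). Of the 36 members 32 were positive, with medians of 0.17 over the endothelial and 0.23 over the mural members, against 0.01 over all genes.

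In D-V against S-V, blocked vision in both, 0 members and 0% of genes were called by edgeR, with 0 members lower and 5 (13.9%) higher at an unadjusted p under 0.05, against 3.01% and 3.42% of all genes. DESeq2 called Col4a2, with 0.0601% of all genes, and limma voom called 0 members and 0% of genes. Col4a2 gave 0.35 (SE 0.08) and Pdgfrb 0.3 (SE 0.07), each with an adjusted p of 0.59 by edgeR. Both had the 5 D-V libraries above all S-V libraries, as did 1.15% of all genes. In D+V against S-V 0 members and 0% of genes were called, with 4 (11.1%) lower and 1 (2.78%) higher at an unadjusted p under 0.05, against 4.79% and 8.2% of all genes. DESeq2 called 0 members and 0.814% of genes. The 4 members (11.1%) that limma voom called were not a larger share than its 13.2% of all genes. The smallest p were those of Cldn5, at -0.37 (SE 0.12), and Esam, at -0.39 (SE 0.12), both with an adjusted p of 0.234. The median over the endothelial members was -0.13, with 21 of 25 negative.

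The other genes of the vessel wall were taken from lists, which were chosen with earlier results of these data known. Of 46 genes of vessel signalling, 1 rose and 1 fell in D+V. Nrp1, a coreceptor for VEGF and semaphorins, rose to 53.6 ± 6.86 CPM in D+V (SD, n = 5), against 38.1 ± 0.877 in Control (SD, n = 3), a log2 fold change of 0.49 (SE 0.11, adjusted p = 0.0412 by edgeR) with all 5 libraries above all controls. The Notch ligand gene Jag2 fell to 27.3 ± 2.34 CPM in D+V (SD, n = 5), against 34.6 ± 1.63 in Control (SD, n = 3), at log2 -0.34 (SE 0.08, adjusted p = 0.042 by edgeR), with all 5 libraries below all controls. With GC and length trends removed 0 genes were called in D+V against Control, so neither call was kept. The same held with only the groups compared, without Control replicate 1 and without Control replicate 2. Both genes are made by other brain cells too, neurons among them. Not called, but next by p in D+V, were the adrenomedullin and CGRP receptor gene Calcrl at 0.56 (SE 0.13, adjusted p = 0.0538 by edgeR) and the BMP receptor gene Acvrl1 at -0.37 (SE 0.11).

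In the other comparisons 0 vessel signalling genes were called by edgeR, and the genes with the 2 smallest p in each direction were as follows. In S-V they were Jag2 at -0.32 (SE 0.08), the semaphorin receptor gene Plxnd1 at -0.33 (SE 0.1), Vegfa at 0.28 (SE 0.1) and Calcrl at 0.28 (SE 0.13). In D-V they were Jag2 at -0.24 (SE 0.08), the Notch ligand gene Dll4 at -0.38 (SE 0.22), Nrp1 at 0.36 (SE 0.11) and Vegfa at 0.29 (SE 0.11). Over the rotated groups together they were Jag2 at -0.3 (SE 0.07), the Wnt inhibitor gene Apcdd1 at -0.16 (SE 0.06), Nrp1 at 0.36 (SE 0.1) and Vegfa at 0.3 (SE 0.09). The list medians lay between -0.01 and 0.05 in the comparisons with Control.

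Of 31 further barrier and transport genes 0 were called in any comparison, and their medians were 0 for S-V, 0.07 for D+V and 0.03 for D-V. The 2 smallest p in each direction belonged in S-V to the taurine transporter gene Slc6a6 (-0.32), Lrp1 (-0.21), Abcc4 (0.39) and Slc16a1 (0.22). In D+V they belonged to the glucose transporter gene Slc2a1 (-0.23), Slc38a5 (-0.38), the transferrin receptor gene Tfrc (0.41) and Jam2 (0.17). In D-V they belonged to Slc30a1 (-0.1), Slc6a6 (-0.11), Slc16a4 (0.87) and Tfrc (0.22), and over the rotated groups together to Slc6a6 (-0.19), Slc38a5 (-0.26), Slc16a4 (0.72) and Tfrc (0.22). At an unadjusted p under 0.05 the counts were 1 (3.23%) lower and 0 higher in S-V, 0 and 2 (6.45%) in D+V, and 0 and 1 (3.23%) in D-V. All genes gave 6.12% and 7.54%, 7.02% and 10.9%, and 2.71% and 3.5% in the same order.

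Of 18 further basement membrane genes 0 were called, with medians of -0.03, -0.01 and 0.07 in S-V, D+V and D-V. Agrn, a heparan sulfate proteoglycan, and Lamb2 had the smallest p among negative values in S-V (-0.28 and -0.21), and Lama4, the endothelial laminin chain, and Agrn in D+V (-0.36 and -0.14), in D-V (-0.33 and -0.16) and over the rotated groups together (-0.22 and -0.19). Among positive values they were Itgb1 (0.18) and Lama2 (0.16) in S-V, Lama2 (0.29) and Itgb1 (0.09) in D+V, Lama2 (0.22) and Col4a5 (0.41) in D-V, and Itgb1 (0.13) and Lama2 (0.22) over the rotated groups together.

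Markers of the same cell types that are not among the 36 members were read in the same libraries against the same controls. Their values are therefore not independent of those of the members. Of 30 other mural markers, 27 were negative in D+V, 25 in S-V and 24 in D-V, with medians of -0.57, -0.3 and -0.2. At an unadjusted p under 0.05, 14 of them (46.7%) were lower in D+V and 0 higher, against 7.02% and 10.9% of all genes, and 0 were called. The leading genes in D+V were the connexin gene Gja4, at 1.64 ± 0.625 CPM in D+V (SD, n = 5) and 3.35 ± 0.924 in Control (SD, n = 3), log2 -1.02 (SE 0.26, adjusted p = 0.0619 by edgeR), and the adhesion molecule gene Mcam at -0.43 (SE 0.12). On the positive side Art3 (0.14) and Rgs4 (0.03) had the smallest p. Rgs4 was at 167 CPM in D+V and 164 CPM in Control, and which cells made it was not tested. In S-V the genes with the 2 smallest p in each direction were the NG2 proteoglycan gene Cspg4 (-0.46), the Notch target gene Heyl (-0.81), Art3 (0.5) and Foxf2 (0.13), and in D-V Casq2 (-0.62), Mcam (-0.29), Slc6a20a (0.22) and Ebf1 (0.11). Over the rotated groups together they were Mcam (-0.35), Heyl (-0.54), Art3 (0.23) and Slc6a20a (0.11).

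Of 37 other endothelial markers tested (Gpihbp1 had too few counts), 25 were negative in D+V, 23 in S-V and 19 in D-V, with medians of -0.14, -0.05 and -0.01, and 0 were called. In D+V the 2 smallest p in each direction were those of the chemokine gene Cxcl12, at log2 -0.3 (SE 0.08, adjusted p = 0.076 by edgeR), the endothelial nitric oxide synthase gene Nos3 at -0.51 (SE 0.16), Palmd at 0.18 and Mecom at 0.49. In S-V they were Ushbp1 (-0.53), Nos3 (-0.3), Adgrl4 (0.32) and the endothelial transcription factor gene Erg (0.46). In D-V they were Ushbp1 (-0.66), the arterial marker Gkn3 (-0.78), Palmd (0.25) and Nr2f2 (0.62), and over the rotated groups together Ushbp1 (-0.63), Gkn3 (-0.77), Palmd (0.21) and Adgrl4 (0.22).

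**Figure D3:**
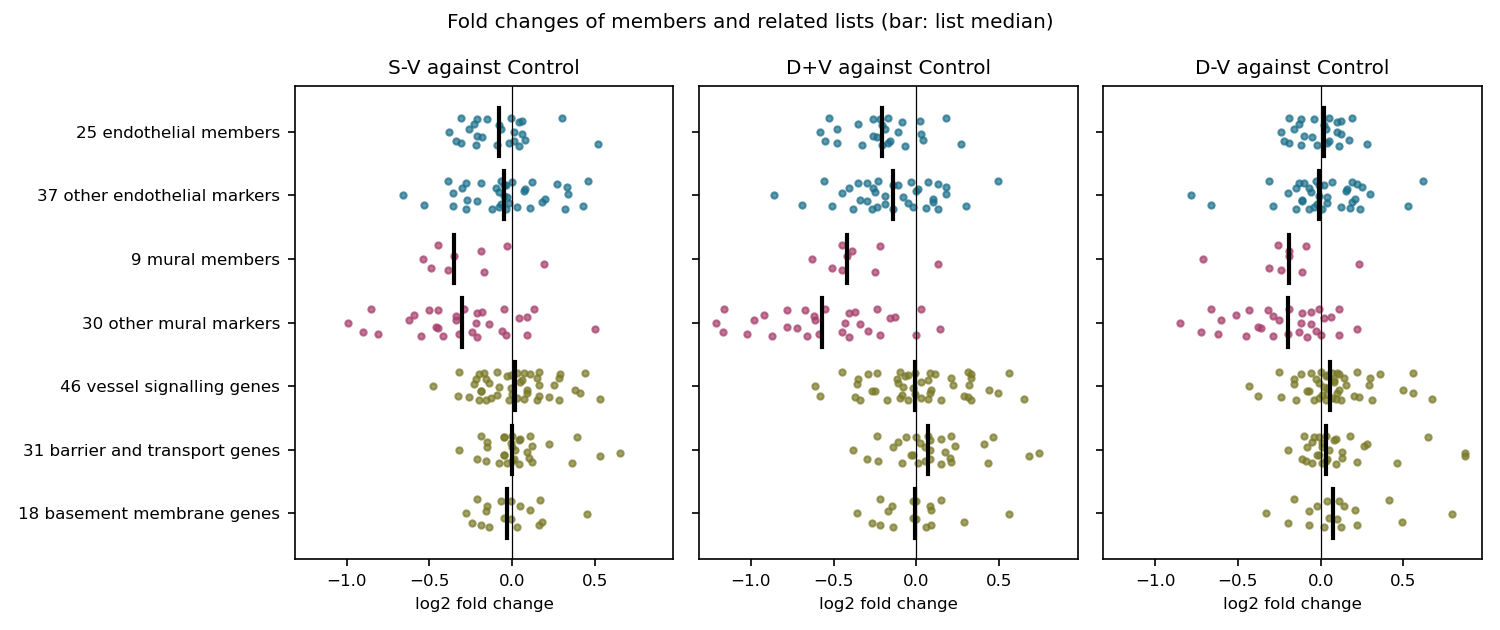
Log2 fold changes against Control of the members and of the related gene lists in S-V, D+V and D-V, 1 point per gene, with a bar at each list's median. The mural lists lie furthest left in each panel, at medians of -0.42 for the members and -0.57 for the other mural markers in D+V, while the barrier and transport genes lie at 0.07.

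Within groups the libraries differed in their vessel gene level as a whole. A score was formed as the mean log2 CPM of a list, set to 0 over all libraries. Of the 5 D+V libraries, replicates 2, 3 and 5 had endothelial scores of -0.21, -0.18 and -0.3, whereas replicates 1 and 4 had -0.02 and 0.04, which is inside the range of Control (-0.04 to 0.25). Mural scores were -0.24, -0.11 and -0.25 in replicates 2, 3 and 5 and -0.1 and 0.08 in replicates 1 and 4, against 0.11 to 0.35 in Control. Across the 18 libraries the endothelial and mural scores correlated with Pearson's r of 0.74 and Spearman's rho of 0.55, and with r of 0.55 without the 2 libraries farthest from the median mural score. No test is given, since the members were chosen with results known and their genes share the libraries.

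Single members followed the rest to different degrees. Against the endothelial score without the member itself, r over 18 libraries was 0.89 for Eng, 0.78 for Pecam1, 0.77 for Cdh5 and Esam and 0.73 for Cldn5, but -0.04 for Ocln, -0.03 for Flt1 and 0.03 for Slco1a4. Vtn, a mural member, followed the endothelial score with r of 0.9. Pdgfrb gave 0.56 with the endothelial and 0.61 with the mural score. Once the group means were removed these were 0.28 and 0.12.

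**Figure D4:**
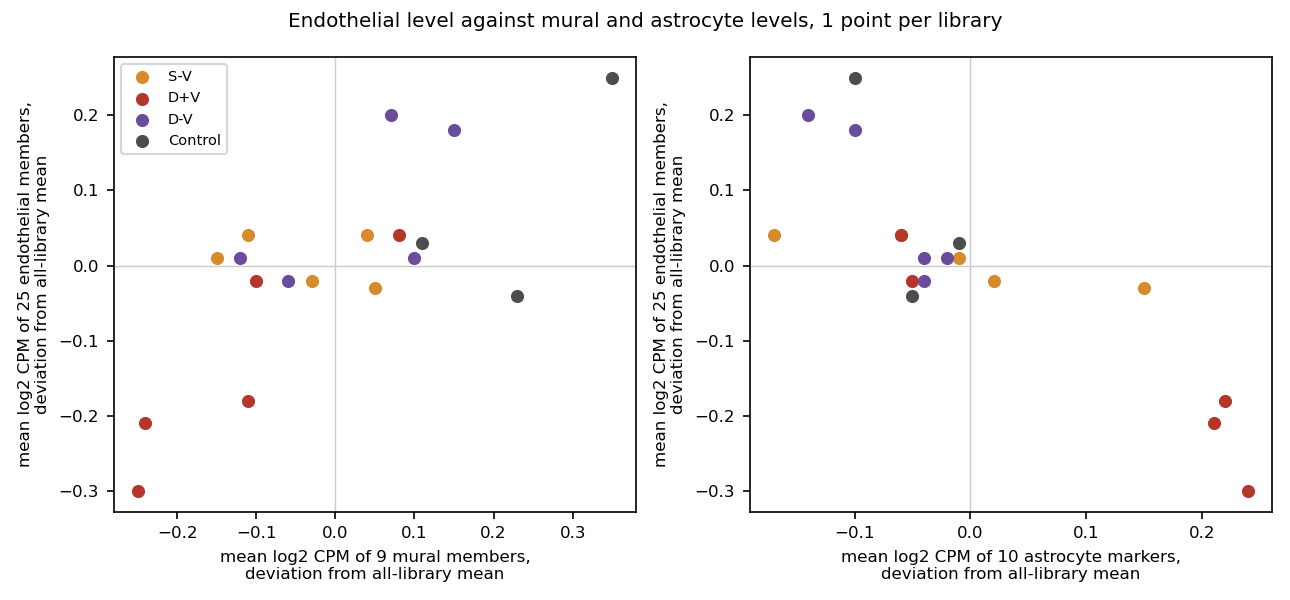
Endothelial score of each library (mean log2 CPM of the 25 endothelial members, as a deviation from the mean of all libraries) against its mural score (left) and its astrocyte marker score (right), coloured by group. D+V replicates 2, 3 and 5 lie at the lower left of the first panel and at the lower right of the second, with endothelial scores of -0.21, -0.18 and -0.3.

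Markers of other cells moved between libraries as well. Summed over 16 markers, choroid plexus epithelium ran from 192 to 4350 CPM in S-V, 156 to 9510 in D+V and 159 to 11200 in D-V, against 170 to 1180 CPM in Control, and 5 rotated libraries stood above a wide gap. Red blood cell markers (7 of 7 measured) summed to 602 to 1000 CPM in S-V, 386 to 3210 in D+V and 917 to 1750 in D-V, against 480 to 640 in Control. Markers of thalamus and habenula (12 of 12) summed to 122 to 177, 121 to 181 and 129 to 156 CPM in the same order, against 135 to 236 in Control, and those of fibroblasts (12 of 13 found) to 171 to 374, 177 to 366 and 127 to 523 CPM, against 138 to 324. In none of these lists was a marker at 0 throughout a group. Both of the following covariates were chosen after seeing the data. With the thalamus level as a covariate 0 members and 0% of genes were called in D+V, at log2 -0.52 for Pdgfrb (adjusted p = 0.0536 by edgeR) and -0.57 for Cldn5 (adjusted p = 0.0861 by edgeR), beside -0.51 and -0.58 without it. With the fibroblast level 3 members and 1.61% of genes were called, at -0.52 for Pdgfrb and -0.58 for Cldn5. Which of them had a part in the members' values was not tested beyond these fits.

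GC content moved with the fold changes. Over 14743 genes with a known transcript sequence, the log2 fold change had a Spearman correlation with GC content of -0.43 for S-V, -0.52 for D+V and -0.24 for D-V, given as a description across genes. The members were richer in GC than all genes tested (median 53.3% and 49.9%), and among the 36 members the correlation was -0.61, -0.52 and -0.24. Of the 10 members with a positive value in S-V, the 3 largest were Ocln, Abcg2 and Rgs5, with 42%, 39.2% and 41.1% GC. The other 7, at log2 0.01 to 0.08, ran from 40.3% to 57.6% GC, while Cldn5 had 60.5% and Pdgfrb 54.9%. With these trends removed in each library, together with those on length, the medians in D+V were -0.17 over the endothelial members (21 of 25 negative) and -0.3 over the mural members (9 of 9 negative). Pdgfrb then had a log2 fold change of -0.46 (adjusted p = 0.123 by edgeR) and Cldn5 of -0.4 (adjusted p = 0.413 by edgeR), so that neither was called. That fit called 0% of all genes.

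**Figure D5:**
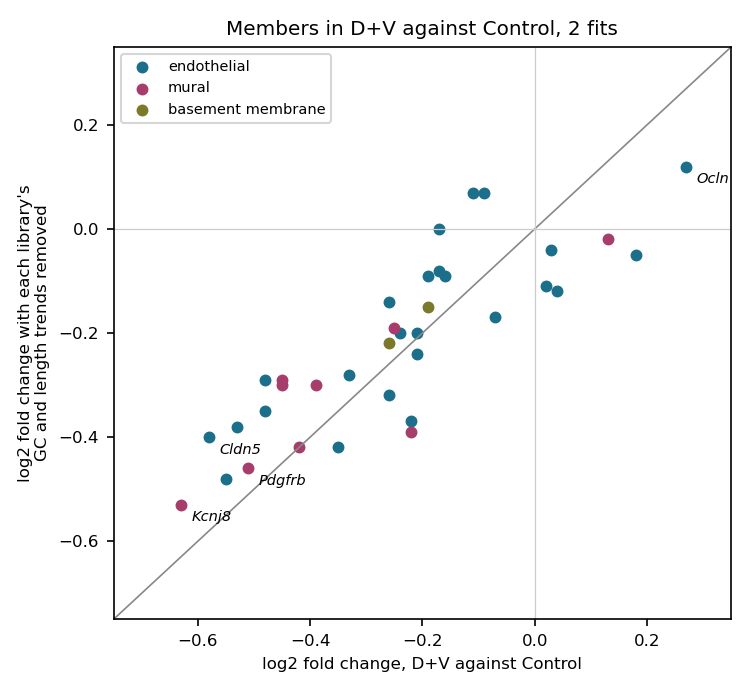
Log2 fold change of each member in D+V against Control as fitted (horizontal axis) and with GC and length trends of each library removed (vertical axis), with the line of equality. Pdgfrb lies at -0.51 as fitted and -0.46 with the trends removed, Cldn5 at -0.58 and -0.4, and Ocln at 0.27 and 0.12.

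The 2 calls rested on few libraries. Both were lost without Control replicate 1 (Pdgfrb -0.51, Cldn5 -0.53) and without Control replicate 2 (Pdgfrb -0.47, Cldn5 -0.54). Each of these 2 fits called 0% of all genes. Leaving out D+V replicate 1 gave 5 members and 8.78% of all genes. Pdgfrb was called with any single D+V library left out, whereas Cldn5 was called without D+V replicate 1 (adjusted p = 0.00413 by edgeR) and not without any other D+V library (adjusted p = 0.0571 to 0.0898). Without Control replicate 3 both were called together with Eng, beside 2.53% of all genes.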

How the data were processed

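RNA of 18 mouse hippocampus samples was sequenced after poly(A) selection, per the labels' protocols. The deposited table holds estimated counts per gene, 7.35% of them not whole, with library totals of 15.03 to 25.31 M. The submitters' processing notes name StringTie 1.3.1, HISAT2, DESeq2 and Bowtie2 2.2.8 without saying what each did. Genome build, annotation and strand use: not given in the sources used here. Counts come without molecular identifiers, so they are not independent molecules.

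Counts were rounded to whole numbers. Genes kept by filterByExpr (14763, all 36 members among them) were scaled by TMM and tested with edgeR 4.0.16 (R 4.3.3) in 1 fit of 4 group means over all libraries, with Benjamini-Hochberg adjustment over all genes and a threshold of 0.05. CPM use these scaled totals; scores are mean log2 CPM (prior count 2). Transcript length and GC content are those of the longest GENCODE M21 transcript. The script was tested on simulated data. No pairing by replicate number was seen, though a weak one could be missed. Same-numbered libraries of different groups deviated together with a median r of 0.01 (-0.45 to 0.34, 24 pairs). Libraries of other numbers also gave 0.01 (-0.4 to 0.65, 96 pairs).

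Every member is named. Those called or among the 8 smallest p against Control are given per library, and from the other lists those called and the 2 smallest p in each direction. Members and lists were chosen with earlier results of these data known. Alternatives were other scaling and filters, DESeq2 1.42.0 (its shares are of 18302 genes) and limma 3.58.1 voom with quality weights per library. Others were only the groups compared, a replicate block, GC and length trends, covariates for other cells, and each library left out.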

Additional observations from a re-analysis of the deposited data

Results flagged for a closer look

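Of 108 sets of a member's values in a rotated group, 13 held a library far from the other 4 by Dixon's criterion, which chance gives for about 1 in 20. Each value is given in CPM with the range of the other 4 libraries.

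Among S-V libraries, Pdgfrb was low in replicate 1 (19.6, others 22.6 to 23.4) and Abcc9 in replicate 5 (5.75, others 6.9 to 7.3). Flt1 was high in replicate 2 (66.9, others 51.1 to 55.5), Foxq1 in replicate 3 (7.84, others 4.77 to 5.44) and Egfl7 in replicate 5 (18.5, others 14.9 to 15.7).

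Among D+V libraries, Notch3 (6.51, others 10.1 to 11.1) and Col4a2 (29.1, others 36 to 38.4) were low in replicate 1, and Ocln was high in replicate 2 (22.3, others 15.3 to 17).

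Among D-V libraries, Cldn5 (44.6, others 35 to 37.7), Sox17 (5.93, others 5.14 to 5.32) and Vtn (106, others 64.6 to 75.8) were high in replicate 4. Ocln (23.8, others 14.5 to 17.1) and Col4a2 (46.4, others 38 to 39.5) were high in replicate 3. Of the libraries flagged here, S-V replicate 2, D+V replicate 2 and D-V replicates 3 and 4 are among the 5 libraries rich in choroid plexus markers. The part of that in these values was not tested.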

How the results depend on the processing

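For the 8 members with the smallest p in each comparison with Control (32 results), the log2 fold change kept its direction in 705 refits. Of these, 664 also stayed on the same side of the threshold, 18 lost a call and 23 gained one. Only 2 of the 32 results were called at first, so all 18 losses were theirs. In D+V Pdgfrb lost its call in 6 refits and kept it in 14, and Cldn5 lost it in 12 and kept it in 8. These 8 members were picked by p in the same libraries. Other members did turn: with GC and length trends removed the sign changed in 17 of 144 results over all members, which lay between -0.11 and 0.18 as fitted and between -0.14 and 0.07 after removal. The counts of calls moved more. In D+V against Control 2 members were called. There were 0 with only the groups compared and 0 with GC and length trends removed, each with 0% of all genes. Without the choroid-rich libraries there were 0, with 0.00684% of all genes. The thalamus and habenula covariate gave 0 (Pdgfrb -0.52, Cldn5 -0.57) with 0% of all genes, and no filter 1 (0.328% of all genes). Both calls were kept with RLE scaling (0.82% of all genes), a mean CPM of at least 1 (1.29%) and the choroid plexus covariate (1.8%). DESeq2 called 4 (4.16% of all genes) and limma voom 8 (12.7% of all genes). With each library left out in turn there were 0 to 5, the 5 without D+V replicate 1 (8.78% of all genes). The fits with 0 were those without Control replicate 1 and without Control replicate 2, each with 0% of all genes. With the replicate block 1 was called (Pdgfrb), with 0.0339% of all genes, and the mural median in S-V was -0.26, as against -0.35. The block changed no other count of members called, and no pairing by replicate number was seen.

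In the comparisons with 0 called, DESeq2 and limma voom called 3 each in S-V against Control (1.13% and 2.15% of all genes). Over the rotated groups together 1 was called with a mean CPM of at least 1 (0.0589% of all genes), 1 by DESeq2 (1.39%) and 3 by limma voom (2.58%). The choroid plexus covariate gave 1 (0.183% of all genes). With each library left out there were 0 to 1, the 1 without D+V replicate 1 (0.0545% of all genes). In D-V against S-V DESeq2 called 1 (0.0601% of all genes). In D-V against D+V DESeq2 called 2 (1.48% of all genes), limma voom 4 (5.55% of all genes) and the fits with a library left out 0 to 4. The fit with 4 was that without D+V replicate 1, which called 8.38% of all genes. In D+V against S-V limma voom called 4 (13.2% of all genes) and the fits with a library left out 0 to 3. The fit with 3 members (8.33%) was also that without D+V replicate 1, which called 9.91% of all genes.

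The endothelial median in S-V was -0.16 by limma voom and -0.16 to 0.04 with each library left out, the last without Control replicate 2. The mural median in S-V was -0.2 with GC and length trends removed, -0.46 with the thalamus and habenula covariate, and -0.39 to -0.26 with each library left out. The mural median in D+V was -0.48 to -0.27 with each library left out, and the endothelial median in D-V was -0.11 without the choroid-rich libraries and -0.05 to 0.11 with each library left out. The cause was not tested. With 3 controls, each of them weighs on every comparison with Control, and members near 1 CPM such as Higd1b have the widest errors.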

Other observations

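The endothelial score ran opposite to the astrocyte marker score across the 18 libraries, with Pearson's r of -0.85 and Spearman's rho of -0.83. With GC and length trends removed these were -0.89 and -0.93, and with the group means removed r was -0.76. D+V replicates 2, 3 and 5 had the 3 highest astrocyte scores (0.21, 0.22 and 0.24) and the 3 lowest endothelial scores, while D+V replicates 1 and 4 had astrocyte scores of -0.05 and -0.06, against -0.1 to -0.01 in Control. Over the 15 libraries without those 3, r was -0.58 and rho -0.71. The points share their libraries and scaling, so this is a description with no p.

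Of 10 astrocyte markers 1 was called in D+V. Aqp4, the water channel of the astrocyte endfeet that cover brain vessels, rose to 166 ± 22.3 CPM in D+V (SD, n = 5), against 123 ± 12 in Control (SD, n = 3), with a log2 fold change of 0.43 (SE 0.1, adjusted p = 0.0422 by edgeR) and all 5 libraries above all controls. In S-V it gave 0.2 (SE 0.1, adjusted p = 0.364) and in D-V 0.08 (SE 0.1, adjusted p = 0.913). The D+V call was lost with GC and length trends removed and with only the groups compared, where 0 genes were called. It was also lost without Control replicate 1 and without Control replicate 2.

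The difference between the mural and the endothelial score was 0.08 to 0.27 in Control and between -0.16 and 0.09 in the 15 rotated libraries.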
